A study of Homo sapiens with 6 samples.

Results

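The genes described here are the oxygen-sensing pathway of hypoxia-inducible factor (HIF): HIF1A, EPAS1, VHL, EGLN1, EGLN3, VEGFA, CA9, LOX, NDRG1 and ADM. They were taken by gene symbol, and all 10 were found among the 16670 genes with values and among the 13088 that passed a filter on low values. RNA came from A549, an established line of human non-small cell lung cancer. Every library was of cells held for 1 week in alisertib, an Aurora A kinase inhibitor, to induce senescence. The 3 untreated libraries had no other drug, and the 3 salinomycin libraries had 48 h of 2.5 µM salinomycin, an ionophore that moves potassium and other alkali ions across membranes, before harvest. The labels name the libraries of each group biological replicates without saying whether they were separate cultures, so p-values measure the spread between these libraries. Cells without alisertib were not analysed here, so the level before senescence is not part of any comparison.

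HIF is a pair of an oxygen-regulated alpha subunit, encoded by HIF1A or EPAS1, and a stable beta subunit such as the ARNT product. In the presence of oxygen the prolyl hydroxylases encoded by the EGLN genes modify the alpha subunit, and the VHL ubiquitin ligase then marks it for destruction. When oxygen is scarce the alpha subunit accumulates and induces genes of blood vessel growth, pH control, matrix cross-linking and glycolysis. EGLN3 is itself a well-known HIF target. Since this control acts on the protein, the transcript levels given here do not measure HIF activity.

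The recovered depth was 13539959 to 19641149 reads per library. Mitochondrially encoded genes held 3.37% to 3.72% of all values in untreated and 0.289% to 0.351% in salinomycin libraries. The 6 epithelial markers were all expressed, with a summed level of 210313 to 238053 units in untreated and 61089 to 70542 units in salinomycin libraries, where 5 fell and KRT19 rose from 1898 to 3164 units. The 4 lung epithelial markers in the table summed to 41.6 to 57.5 units in untreated and 44.1 to 62.0 units in salinomycin libraries. Of these NAPSA had 48.9 and 34.5 units and did not pass, NKX2-1 rose from 0 in every untreated library to 15.6 units, and SFTPB and SFTPC had means under 1 unit. None of the 5 endothelial markers in the table passed the filter, with a sum of at most 20.5 units in any library. The 6 fibroblast markers summed to 851 to 1175 units in untreated and 473 to 513 units in salinomycin libraries, and the 3 leukocyte markers in the table to 193 to 226 and 47.8 to 72.3 units. The leukocyte sum followed CD14, which fell from 201 to 30.2 units, while LYZ rose from 6.40 to 19.6 units and CD68 was not tested, with 2.14 and 9.34 units. NKX2-1 and LYZ could pass the filter only with the salinomycin libraries, so they had to differ to be tested. The part of these shifts in the results below was not tested. In bulk RNA fewer cells with a transcript and less of it per cell cannot be told apart.

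With salinomycin 6 of the 10 genes fell, 3 rose and 1 did not pass. Of all tested genes 81.9% passed, 40.2% as falls and 41.6% as rises, by the same rule, a Benjamini-Hochberg adjusted p under 0.05 in limma. The falls were in both HIF alpha genes, in both prolyl hydroxylase genes and in the targets CA9 and ADM. The rises were in the targets LOX, NDRG1 and VEGFA. Changes of at least 2-fold were found in 4 genes that fell and in 1 that rose, against 18.5% and 16.8% of tested genes. The libraries of the groups did not overlap for 9 of the 10, as for 83.0% of tested genes. The median log2 change of the 10 was -0.43, and that of all tested genes was 0.022. Values are normalised units, which are the deposited values after trimmed-mean scaling, and changes are on the scale of log2 of units plus 1.

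**Figure D1:**
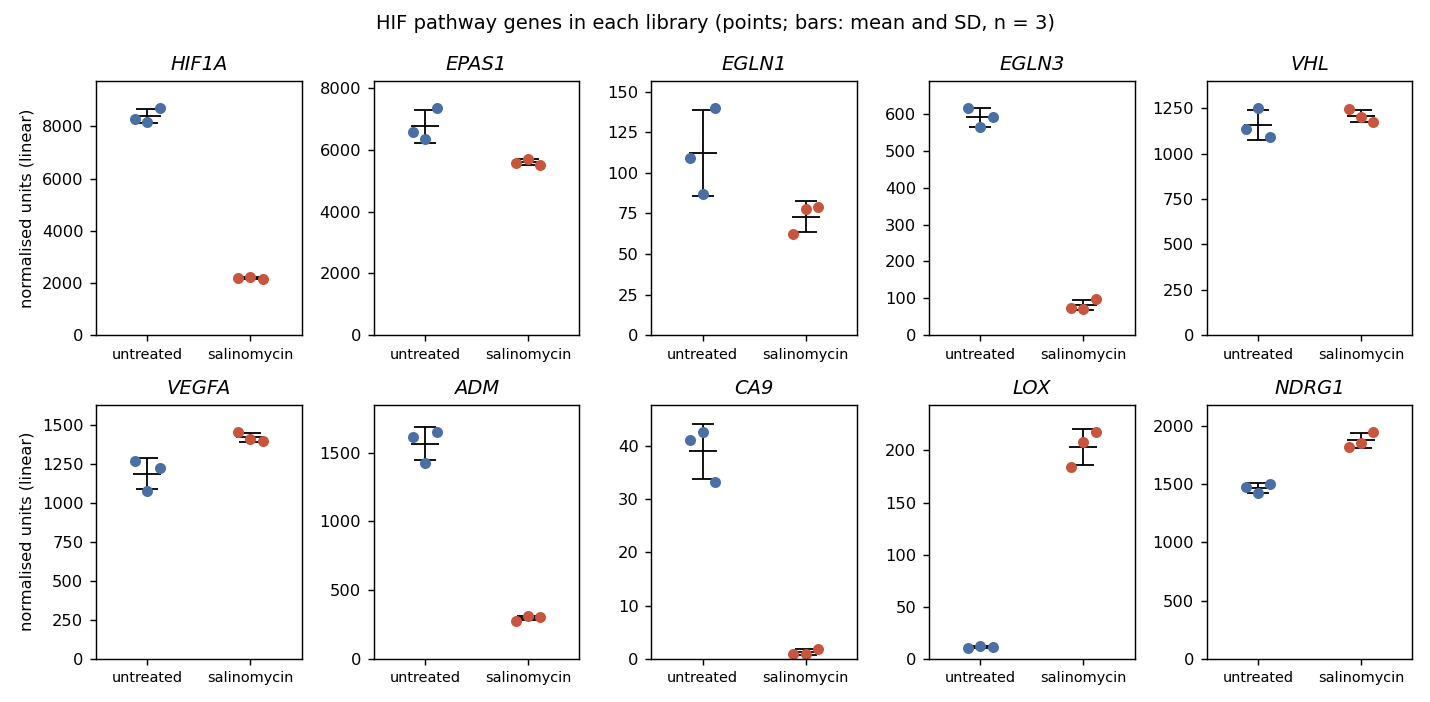
Normalised units of each of the 10 genes on linear axes that start at 0, 1 point per library, with the mean and SD of 3 libraries. The groups are apart for every gene other than VHL, and the gap is widest relative to the level for CA9, LOX, EGLN3, ADM and HIF1A.

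HIF1A, which encodes the alpha subunit found in nearly all tissues, lies on chromosome 14 (61695513 to 61748259, GRCh38, plus strand). It stood at 8288, 8182 and 8691 units in untreated replicates 1 to 3 and at 2191, 2229 and 2135 units in the salinomycin libraries. All 3 salinomycin libraries lay far below all untreated ones, and their spread was narrow. The group means were 8387 ± 269 and 2185 ± 47.3 units (SD, n = 3 each), a 3.84-fold fall (log2 change -1.94, SE 0.047; limma adjusted p = 8.27e-12).

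EPAS1, which encodes the alpha subunit best known from endothelium and kidney cancer (chromosome 2, 46293667 to 46386703), changed far less. Its untreated values were 6579, 6354 and 7353 units, and its salinomycin values were 5589, 5711 and 5508 units. The groups did not overlap, but the step was small, a 1.2-fold fall (log2 change -0.27, SE 0.058; limma adjusted p = 9.91e-04). That fall did not pass under scaling by library size alone, where the change was -0.077 (limma adjusted p = 0.225).

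The ratio of HIF1A to EPAS1 within a library does not depend on the scaling. It was 1.26, 1.29 and 1.18 in the untreated libraries and 0.392, 0.390 and 0.388 in the salinomycin libraries. The ratio was thus lower in every salinomycin library than in any untreated one, and hardly varied among the treated libraries. The ratio fell 3.19-fold (exact permutation p = 0.1, two-sided, the smallest that 3 against 3 allows; adjusted p = 0.1 over the 2 ratios tested).

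EGLN3, a hydroxylase gene that HIF itself induces (chromosome 14, 33924231 to 34462774), had 616, 565 and 593 units in the untreated libraries. It had 75.0, 71.3 and 97.6 units with salinomycin, so that the highest treated value was far under the lowest untreated one. The fall was 7.26-fold (log2 change -2.86, SE 0.118; limma adjusted p = 5.28e-10), which ranked 412 among all tested genes counted from the largest fall.

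EGLN1, which encodes the main hydroxylase of the alpha subunits in normal oxygen (chromosome 1, 231363751 to 231425044), was a low-level transcript. Its untreated values were spread, at 109, 87.2 and 140 units, and its salinomycin values were 62.0, 77.8 and 78.9 units. The groups were separate by less than 10 units, and the fall was 1.51-fold (log2 change -0.60, 95% confidence interval -0.98 to -0.21; limma adjusted p = 0.00798). Over all alternative settings its adjusted p was between 0.00108 and 0.0473.

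The ratio of EGLN3 to EGLN1 was 5.64, 6.48 and 4.24 in the untreated libraries and 1.21, 0.916 and 1.24 in the salinomycin libraries. EGLN3 thus fell more than EGLN1 did. The highest treated ratio was far below the lowest untreated one. The geometric mean of the ratio fell 4.84-fold (exact permutation p = 0.1, two-sided, the smallest possible, and adjusted p = 0.1 over the 2 ratios).

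**Figure D2:**
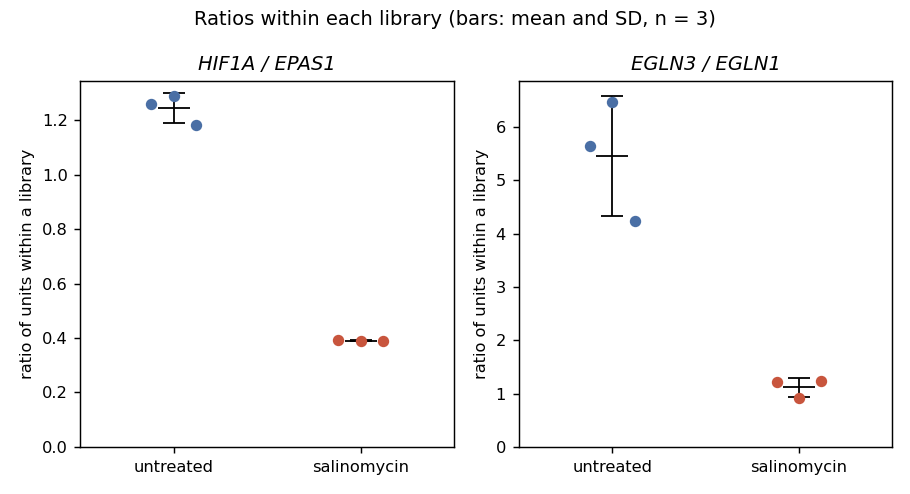
Ratio of normalised units of HIF1A to EPAS1 (left) and of EGLN3 to EGLN1 (right) in each library, on linear axes from 0, with the mean and SD of 3 libraries per group. The HIF1A to EPAS1 ratio is between 1.18 and 1.29 in untreated and between 0.388 and 0.392 in salinomycin libraries.

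VHL, the gene of the substrate-binding part of the ubiquitin ligase (chromosome 3, 10141008 to 10152220), was the 1 gene of the 10 that did not pass. It had 1136, 1250 and 1092 units without and 1243, 1200 and 1175 units with salinomycin, and the groups overlapped. The log2 change was 0.059 with a 95% confidence interval of -0.076 to 0.19 (limma adjusted p = 0.387). Scaling by library size alone moved it to 0.25 (limma adjusted p = 0.00328), next to a median of 0.21 over all tested genes under that scaling.

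Of a wider list of 20 HIF subunits, oxygen sensors and cofactors, 19 were tested. Of these, 8 fell (42.1%), 6 rose (31.6%) and 5 missed the threshold, where 40.2% of all tested genes fell and 41.6% rose. The median log2 change of the 19 was -0.018, against 0.022 for all tested genes. Among the 14 that are not of the 10 genes above, 6 rose and 4 fell. SIAH2, a ubiquitin ligase gene whose product acts on the EGLN proteins, rose 2.46-fold from 459 ± 23.0 to 1129 ± 52.6 units (SD, n = 3 each). Its relative SIAH1 rose 1.58-fold, and ELOB, which encodes the elongin B subunit of the VHL ligase, rose 1.77-fold. ARNT2, which encodes an alternative beta subunit, fell 2.38-fold from 1159 ± 78.9 to 485 ± 24 units. The beta subunit gene ARNT went the other way, with a 1.51-fold rise from 980 ± 24.9 to 1484 ± 35.5 units. Exons of SIAH1 overlap LONP2, and those of ELOB overlap SRRM2, on the opposite strand, and reads of such pairs cannot be told apart without strand. With library size alone the count in this list was 9 higher and 5 lower.

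CA9 encodes carbonic anhydrase IX, a membrane enzyme that helps export acid from hypoxic tumour cells (chromosome 9, 35673856 to 35681159). It was low in untreated cells, at 41.1, 42.6 and 33.1 units, and nearly absent with salinomycin, at 0.93, 0.94 and 1.88 units. These values stand for 103 recovered reads in the untreated group and 4 in the salinomycin group. After allowance for depth, the untreated level was 34.4 times the salinomycin level, with a 95% counting interval of 13 to 129. The fitted fall was 18-fold (log2 change -4.17, SE 0.322; limma adjusted p = 1.42e-07) and 5.06-fold with a pseudocount of 8. CA9 passed the filter on low values only through the untreated libraries, where it was high, so it had to differ to be tested. The other 9 genes passed it in both groups. Its exons overlap those of ARHGEF39 on the opposite strand over 38.5% of their length, and ARHGEF39 fell from 32.8 ± 4.62 to 7.16 ± 2.87 units. Without strand, reads in the shared part cannot be told apart.

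ADM, which encodes the vessel-widening peptide adrenomedullin (chromosome 11, 10304680 to 10307397), had 1615, 1426 and 1650 units in untreated libraries. It had 278, 310 and 303 units with salinomycin, far under every untreated value. The fall was 5.24-fold (log2 change -2.39, SE 0.074; limma adjusted p = 5.01e-11).

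LOX, the gene of lysyl oxidase, which cross-links collagen and elastin (chromosome 5, 122063195 to 122078360, minus strand), moved the other way. It had 10.8, 12.8 and 11.7 units in untreated libraries, close to the filter, and 184, 208 and 218 units with salinomycin. Every treated library was far above every untreated one. The rise was 16-fold (log2 change 4.0, SE 0.157; limma adjusted p = 3.30e-10), or 10.7-fold with a pseudocount of 8, and it was the 122nd largest of 13088 changes counted from the highest. It rested on 31 untreated and 707 salinomycin reads, a depth-adjusted ratio of 17.1 (95% counting interval 11.9 to 25.3). SRFBP1, which shares 2.5% of the LOX exon length on the opposite strand, had 185 ± 19.6 and 226 ± 20.6 units.

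NDRG1, a stress-induced gene long used as a marker of hypoxia (chromosome 8, 133237171 to 133302022), had 1477, 1418 and 1496 units without and 1821, 1853 and 1946 units with salinomycin. The groups were apart, and the rise was 1.28-fold (log2 change 0.36, SE 0.051; limma adjusted p = 4.04e-05). VEGFA, the main growth factor for blood vessels (chromosome 6, 43770184 to 43786487), had 1267, 1080 and 1222 units without and 1456, 1412 and 1397 units with salinomycin. Its rise was 1.2-fold (log2 change 0.26, SE 0.064; limma adjusted p = 0.00264). Both rises passed under all alternative settings, but their size moved with the scaling. The log2 change ran from 0.27 to 0.55 for NDRG1 and from 0.17 to 0.45 for VEGFA, with the higher ends under library size alone.

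**Figure D3:**
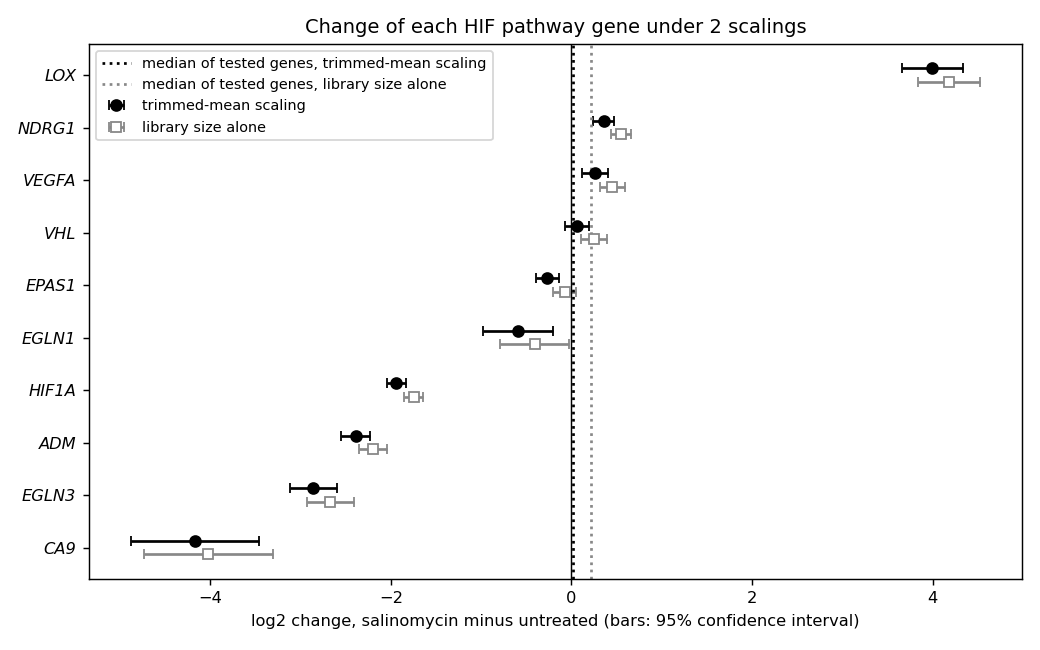
Log2 change of each gene, salinomycin minus untreated, with its 95% confidence interval, under trimmed-mean scaling (filled circles) and library size alone (open squares). Dotted lines mark the median of all tested genes under each scaling (0.022 and 0.212). CA9, EGLN3, ADM and HIF1A lie below and LOX lies above 0 under both, and VHL is close to the median under both.

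HIF binds a short core of DNA, and the stretch before the start site was searched for its letters ACGTG and GCGTG on both strands. RefSeq promoter sequences (build GRCh38.p14) matched 7 of the 10 genes, the 7 being ADM, CA9, EGLN1, EGLN3, EPAS1, HIF1A and LOX, and VEGFA, VHL and NDRG1 had no entry. Over the 250 bases before the start, 6 of the 7 held at least 1 match and EGLN3 held 0. Of 10563 promoters of tested genes 56.8% held at least 1, so a match is common. LOX held 4 matches, a number reached by 5.0% of those promoters, and each of the other 5 held 1. The sequences below show the matches, in capitals, for genes on either side of 0. On the opposite strand the letters ACGTG read as CACGT. The LOX run is the stretch from base -250 to base -102 (chr5:122078361-122078509, minus strand), which lies outside annotated exons and holds 2 of the 4 matches. The others are 30-base windows, for CA9 chr9:35673898-35673927 on the plus strand, for ADM chr11:10304960-10304989 on the plus strand and for EGLN1 chr1:231422288-231422317 on the minus strand, and these lie within annotated exons of longer transcripts.
LOX: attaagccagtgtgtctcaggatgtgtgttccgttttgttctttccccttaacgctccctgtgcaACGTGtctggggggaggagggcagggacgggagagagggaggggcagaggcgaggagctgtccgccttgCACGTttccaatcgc
CA9: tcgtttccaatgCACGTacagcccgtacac
ADM: gagcaggagcgcGCGTGgctgaggaaagaa
EGLN1: ccgcggggccgtggtgtACGTGcagagcgc
The match in CA9 lies 18 to 14 bases before the RefSeq start and that in EGLN1 13 to 9 bases before it. LOX rose while CA9, ADM and EGLN1 fell, so genes with a match went both ways. A match shows only that the letters are present, not that HIF bound there.

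Relatives of the target genes moved in both directions. The counts for this and the next 4 families stand beside 41.6% of all tested genes that rose and 40.2% that fell. With 81.9% of tested genes called, most members of any small family would be called. Of the 5 lysyl oxidase genes, 4 rose and 1 fell. LOXL1 and LOXL3 rose 2.75-fold and 2.04-fold from means of only 6.06 and 7.48 units. Both means are under the filter of 10, so these genes could pass it only with the salinomycin libraries. Exons of LOXL3 overlap HTRA2 over 14.3% and DOK1 over 5.0% of their length on the opposite strand. LOXL2 rose 1.15-fold from 3894 ± 383 units, a rise that did not pass with upper-quartile scaling. LOXL4 fell 2.76-fold from 290 ± 11.1 to 105 ± 8.21 units.

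Among carbonic anhydrase genes 7 of 11 in the table were tested, and 1 rose and 4 fell. CA12, a membrane enzyme with the same reaction as CA9 and also a HIF target, fell 5.23-fold from 33385 ± 2177 to 6387 ± 504 units, so both of these membrane enzyme genes fell. CA11 and CA8 fell 2.56-fold and 2.01-fold. The cytosolic CA13 rose 7.25-fold from 17.5 ± 6.15 to 129 ± 9.04 units. CA2 had 14.6 and 9.96 units and CA5B 164 and 152 units, and neither passed.

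NDRG1 was the only member of its family of 4 to rise. NDRG2 fell 3.75-fold, NDRG3 2.22-fold and NDRG4 1.78-fold. The direction of these 3 was the same under every scaling tried.

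In the adrenomedullin group ADM fell and the other 3 tested genes rose. Of these, CALCB passed the filter on low values only through the salinomycin libraries, so it had to differ to be tested. CALCRL did not reach the filter in every untreated library, so it too needed salinomycin libraries to be tested. ADM2, which encodes the related peptide intermedin, rose 12.9-fold from 35.7 ± 2.96 to 470 ± 11.8 units. The peptide gene CALCB had 3 recovered reads in the untreated and 218 in the salinomycin group, a depth-adjusted ratio of 54.4 (95% counting interval 18.4 to 266). Reads could also have been split between CALCB and its close paralog CALCA. CALCRL, the shared receptor gene, rose 3.52-fold from 13.6 ± 5.57 to 48.2 ± 11.3 units. The receptor partner genes RAMP1, RAMP2 and RAMP3 were all below the filter.

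For VEGF ligands and receptors, 7 were tested, of which VEGFA rose, 2 fell and 4 did not pass. The co-receptor genes NRP2 and NRP1 fell 5.19-fold and 2.61-fold, from 7974 ± 490 to 1535 ± 54.0 and from 4936 ± 177 to 1894 ± 56.8 units. VEGFB had 807 and 824 units, VEGFC 260 and 236, PGF 32.8 and 24.6, and the receptor gene FLT4 45.7 and 59.8 units. These calls vary with the scaling, since VEGFB and FLT4 also rose with library size alone and PGF fell with upper-quartile scaling. FLT1 had means of 0.71 and 0.31 units and was not tested.

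**Figure D4:**
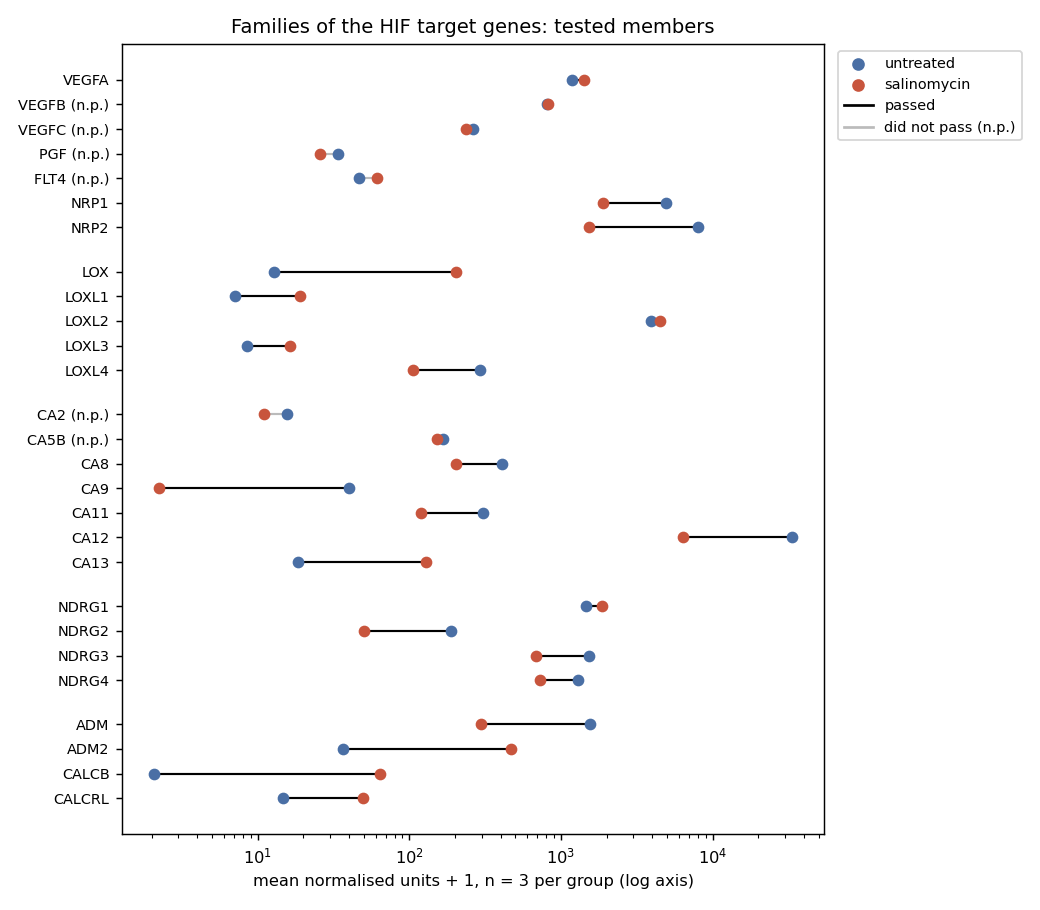
Mean normalised units plus 1 of each tested gene in the families of the 5 targets, on a log axis (n = 3 libraries per group), with a line that joins the untreated and the salinomycin mean. Grey lines mark genes that did not pass. LOX and CA13 rise and CA9 and CA12 fall within the same plot, and NDRG1 moves against its 3 relatives.

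HIF targets of glucose metabolism moved in both directions. Of 21 tested, 12 fell (57.1%) and 6 rose (28.6%), against 40.2% and 41.6% of all tested genes, with a median log2 change of -0.36 against 0.022. LDHA, the lactate dehydrogenase gene, fell 9.64-fold from 27643 ± 855 to 2866 ± 34.3 units, and PFKFB3, which encodes an activator of phosphofructokinase, fell 4.97-fold. HK2 (hexokinase 2) and ALDOC (aldolase C) went the other way, with rises of 93.0-fold and 12.3-fold, and HK2 started from 19.3 ± 5.72 units. Several genes of glycolysis have processed copies elsewhere in the genome among which the authors' counting could have split reads.

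A list of 35 other HIF targets, which holds VEGFA, CA9, LOX, NDRG1 and ADM, had all 35 members tested. Rises were found in 19 (54.3%) and falls in 13 (37.1%), against 41.6% and 40.2% of all tested genes, and the median log2 change was 0.26. Without the 5 genes already described, 16 of 30 rose and 11 fell. INSIG2, which encodes a sterol-sensing partner protein of the endoplasmic reticulum, rose 4.47-fold from 368 ± 18.5 to 1648 ± 62.6 units. PLOD2, a collagen lysyl hydroxylase gene, fell 4.32-fold from 5442 ± 244 to 1258 ± 61.5 units. MXI1, a MYC antagonist gene, fell 4.22-fold from 391 ± 18.9 to 92.4 ± 11 units. Changes of at least 2-fold were found in 4 genes of the list that rose and 9 that fell, where 16.8% and 18.5% of all tested genes rose and fell that far.

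**Figure D5:**
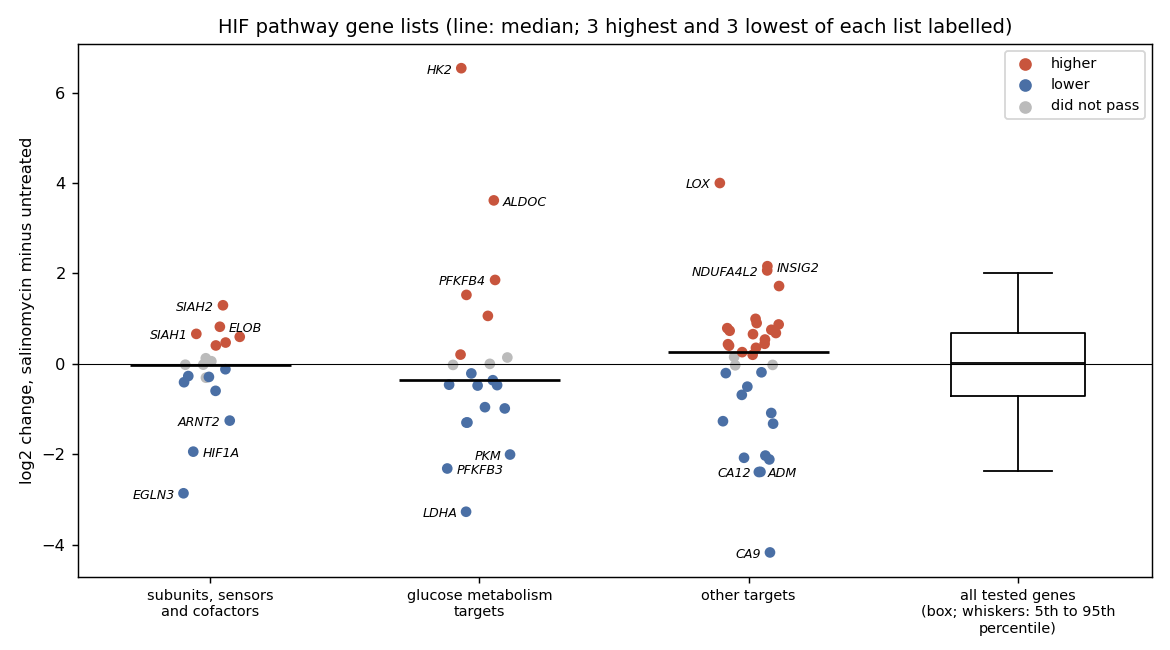
Log2 change, salinomycin minus untreated, of the tested genes of 3 lists, 1 point per gene, with the list's median as a line and the spread of all 13088 tested genes as a box. HK2 and LOX are the highest and CA9 and LDHA the lowest points, and all 3 lists lie on both sides of 0.

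In the authors' deposited table the log2 fold changes of all 10 genes had the same direction as here. They were -1.74 for HIF1A, -2.65 for EGLN3, -2.20 for ADM, -4.0 for CA9 and 4.19 for LOX. The authors also gave log2 fold changes minus a fitted value, where VHL went from 0.254 to -0.031. The calls differed for 3 genes in the authors' deposited table, where EGLN1 (-0.42, adjusted p = 0.0629) and EPAS1 (-0.074, adjusted p = 0.325) did not pass an adjusted p of 0.05 and VHL did (0.254, adjusted p = 0.00229). The authors' deposited table of gene sets held 53 sets with hypoxia, HIF or VHL in their names. Of these 10 had a negative and 2 a positive normalised enrichment score at an adjusted p under 0.05, or 22.6% of the 53 against 17.8% of all 21624 sets. Over all sets 2774 were negative and 1083 positive by the same rule, so negative scores were the more common ones there too. By the authors' deposited table the Semenza list of HIF targets scored -1.715 (adjusted p = 0.0375) and the Winter hypoxia metagene -1.691 (adjusted p = 0.000124). The largest negative score among the 53 was -2.372, for the Weinmann set of genes raised in adaptation to hypoxia (adjusted p = 5.99e-05). The Manalo sets of genes raised and lowered by hypoxia scored -1.61 (adjusted p = 0.00222) and 1.825 (adjusted p = 1.52e-06). In the authors' deposited table the Mense set of genes raised by hypoxia went the other way, at 1.705 (adjusted p = 0.0058). The Weinmann set of genes lowered in adaptation to hypoxia scored -1.74 (adjusted p = 0.0319), so passing sets did not all read the same way. The hallmark hypoxia set (1.137, adjusted p = 0.418) and the Buffa hypoxia metagene (0.823, adjusted p = 0.885) did not pass there. These sets share genes.

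Divided by the length of each gene's principal GENCODE transcript, the order of levels in untreated cells was HIF1A, EPAS1, VEGFA, ADM, NDRG1, VHL, EGLN3, CA9, EGLN1 and LOX. It ran from 2140 ± 68.6 units per kb for HIF1A to 2.31 ± 0.192 for LOX (SD, n = 3). No neighbours in this order had overlapping libraries, though VEGFA (901 to 1057 units per kb) and ADM (755 to 873) were close. CA9 (20.4 to 26.3) and EGLN1 (12.3 to 19.7) were close as well. With salinomycin the order was VEGFA, EPAS1, HIF1A, NDRG1, VHL, ADM, LOX, EGLN3, EGLN1 and CA9. With these lengths VEGFA then led at 1186 ± 25.8 units per kb and EPAS1 followed at 1085 ± 19.7. HIF1A had 558 ± 12.1 units per kb. LOX (36.1 to 42.7 units per kb) passed EGLN3 (26.3 to 36.0), and their ranges nearly met. Lengths take 1 transcript per gene, so this order is approximate. The transcript used for VEGFA had 1199 bases, the shortest of these lengths, while its merged annotated exons cover 14431 bases. A longer VEGFA transcript would lower its units per kb. The places of VEGFA in the untreated and salinomycin orders, and its closeness to ADM, thus rest on that length. Other lengths were not tried.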

How the data were processed

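The 10 genes and all gene lists were chosen with earlier results of these data known. RNA-seq of 6 libraries was used (3 untreated, 3 salinomycin). The authors deposited signal values per gene and library, whole numbers already rescaled to nearly equal totals with 1 apparently added, on build GRCh38 per the submitters' processing notes. The aligner, counter and strand setting are not given in the sources used here. Per the file headers the authors also deposited log10 means, log2 fold changes, a linear fold change (ratio), a test score and p-values, and a second table with scores and p-values per gene set.

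The added 1 was subtracted. Each library's scale factor was estimated from the steps in its low values, which gave recovered reads (estimates), used for depth, counting intervals (counting error only) and a limma-voom alternative. Values were divided by trimmed-mean factors (30% of log ratios and 5% of levels trimmed). Genes that reached 10 in 3 or more libraries before scaling were tested as log2 of units plus 1 with limma 3.58.1 in R 4.3.3, with an intensity trend in the prior variance and p-values adjusted by Benjamini-Hochberg over all tested genes. In data simulated for this comparison (12886 genes tested) the fit recovered 46% of 1.2-fold, 96% of 1.5-fold, 98% of 2-fold and 100% of 4-fold changes, and 2 of 172 calls were false. Only 50 genes were changed at each fold there, equally up and down, while 81.9% of tested genes passed in the data. The simulation thus did not try the scaling, and its shares do not carry over to small changes that depend on it. Named genes were the 10, the called genes with the largest changes in each list (4 at most), and tested relatives of the targets. ARNT was also named, beside ARNT2. Positions are from GENCODE release 29. Alternatives were 3 other scalings, 2 filters, 2 pseudocounts, a replicate block, limma-voom, leaving mitochondrially encoded genes out of the scaling, and leaving out each library.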

Additional observations from a re-analysis of the deposited data

How the results depend on the processing

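HIF1A, EGLN1, EGLN3, VEGFA, CA9, LOX, NDRG1 and ADM kept their direction and stayed past the threshold under each of the alternatives that gave a value. CA9 could not be tested under the filter of 50 units or without any 1 of the untreated libraries, where it missed the filter. With library size alone EPAS1 did not pass (-0.077), VHL passed (0.25), the median of all tested genes moved from 0.022 to 0.212, and all tested genes split into 6461 higher and 4353 lower in place of 5451 and 5266. The list of HIF subunits, sensors and cofactors then had 5 genes lower. With upper-quartile scaling the log2 change of VHL was -0.027. These differences follow from where a scaling sets 0. Among the calls that held, the adjusted p of EGLN1 came closest to the threshold (0.0473 in limma). Leaving out 1 library at a time gave 3 genes of the 10 higher and 5 or 6 lower.

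No pairing by replicate number was seen: deviations from the group means correlated at -0.172, -0.013 and -0.033 between libraries of the same number. Between libraries of unlike number the correlations ran from -0.154 to 0.194. With 3 libraries per group these values cannot show whether libraries shared a culture or batch. A replicate block gave 5325 higher and 5130 lower genes and changed no call among the 10.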

Other observations

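For the 3 genes with the largest change, the genes with the most similar pattern were sought among 11273 tested genes with a mean of at least 50 units. Likeness was the distance between the 6 centred log2 values, which the group difference dominates. For CA9 they were LYPD1 (distance 0.327), LXN (0.349), which encodes the peptidase inhibitor latexin, and APOH (0.374), a plasma glycoprotein gene. LXN went from 2374 to 119 units. The log2 values of CA9 depend on the pseudocount (18-fold fall at 1, 5.06-fold at 8), so its likeness does too. Likeness was not tried with other pseudocounts. For LOX the most similar genes were STC2 (0.257), a secreted glycoprotein gene that went from 311 to 4421 units, the transcription factor gene SOX8 (0.268) and the transporter gene SLC6A17 (0.281). SOX8 went from 9.99 to 187 units, so it could pass the filter of 10 only with the salinomycin libraries. For EGLN3 the most similar genes were CYB5RL (0.151), UNC93B1 (0.187), which encodes a chaperone of Toll-like receptors, and COCH (0.215). UNC93B1 went from 820 to 107 units, close to EGLN3 in fold.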
